A study of Mus musculus with 12 samples.

Results

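A set of 10 enzymes of amino acid metabolism typical of the liver was followed across heart and kidney of mENT1 knockout and wild type mice. It holds the urea cycle enzymes Cps1, Otc, Ass1, Asl and Arg1, the methionine and betaine enzymes Mat1a, Bhmt, Bhmt2 and Gnmt, and the tyrosine-degrading enzyme Tat. The members were taken by gene name or synonym from the probe annotation of the scanner files, which gave 10 genes on 13 probes among 27669 genes on 41174 probes. Otc had 3 probes, Ass1 had 2 and each other enzyme had 1. Their signal and a flag for signal well above background were read on every array. The set was chosen by the signal of liver transcripts in hearts, which was already known to be higher in knockout than in wild type hearts, so that comparison is described here without a test.

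The study hybridised total RNA from each sample to a 1-colour Agilent array, with 3 arrays in each of 4 groups, which are the hearts and the kidneys of mENT1 knockout mice and of wild type mice. All mice had the FVB/N genetic background, and the design states 3 mice of each genotype. The labels give no age, no sex and no account of how or in which cells the gene was inactivated. Arrays carry the letters a, b and c within a group, with no statement that a letter marks the same animal in both tissues. Every p-value below measures the spread between these 3 and 3 arrays.

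The urea cycle turns ammonia into urea. Cps1 makes carbamoyl phosphate in mitochondria, Otc joins it to ornithine, Ass1 and Asl build and split argininosuccinate to give arginine, and Arg1 releases urea from arginine. The complete cycle is a property of periportal hepatocytes, while the proximal tubule of the kidney uses Ass1 and Asl to make arginine from circulating citrulline. In the methionine pathway Mat1a makes S-adenosylmethionine, Gnmt spends it on glycine, and Bhmt and Bhmt2 return homocysteine to methionine with betaine or S-methylmethionine as the methyl donor. Tat begins the breakdown of tyrosine.

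Signals are given as log2 of the background-corrected intensity minus the 75th percentile of the same array, so a value of 0 lies at that percentile and a difference of 1 is a doubling. A level of one probe cannot be compared with that of another on such arrays. The targeted gene was checked first. Slc29a1, which encodes ENT1, gave 1.38, 0.59 and 1.53 in knockout hearts, against 3.15, 3.23 and 3.36 in wild type hearts. In knockout kidneys it gave -1.43, -1.30 and -1.43, against 1.51, 1.27 and 1.62 in wild type kidneys. It was therefore lower on every array labelled knockout, by a log2 difference of -2.08 in heart and -2.85 ± 0.16 (SE, n = 3 and 3) in kidney, where limma gave an adjusted p of 0.00548. The labels do not say which part of the gene was removed. In the deposited table of normalised values each column followed the scanner values of the array of the same tissue and letter but the opposite genotype (r of at least 0.9998), so the direction of every genotype difference below would turn round if that table's column names were followed. Directions here follow the labels of the scanner files.

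All 8 cardiomyocyte markers were well above background on every heart array, and all 8 proximal tubule markers on every kidney array. The arrays lay on 4 slides. Slide and genotype coincided in the heart and cannot be told apart there, whereas slide 2 held knockout kidneys b and c with wild type kidneys a and b. Xist, a transcript of female cells, was well above background on knockout hearts a and b and knockout kidney a and on no other array. Since RNA came from whole tissue, fewer cells of a type and less RNA per cell cannot be told apart.

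**Figure D1:**
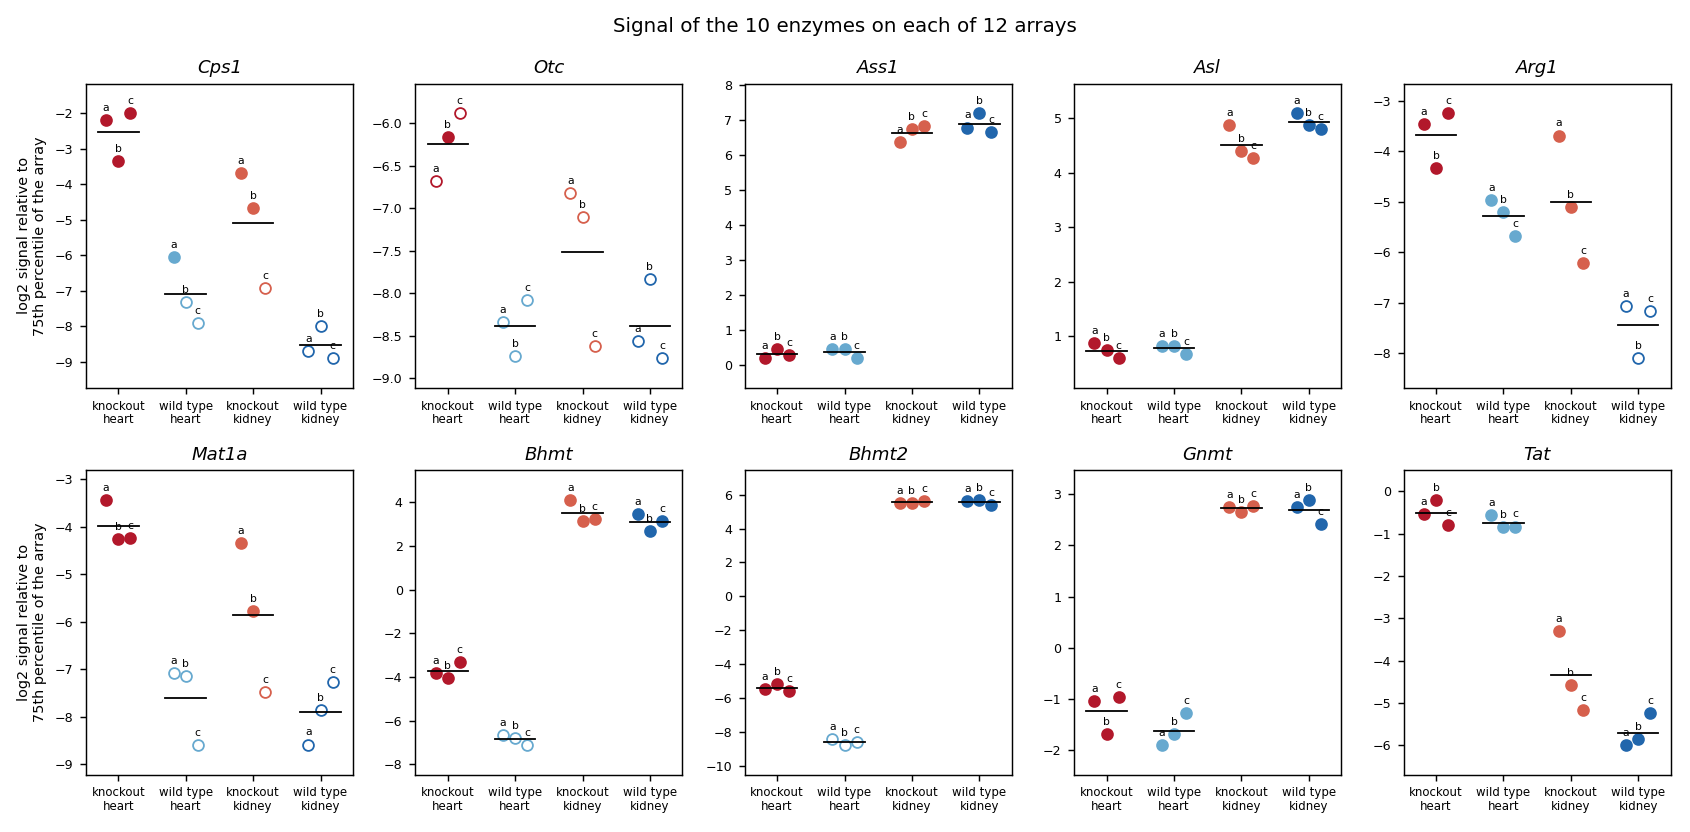
Signal of each of the 10 enzymes (vertical axis, log2 relative to the 75th percentile of the array, own scale in each panel) on the 12 arrays, with hearts on the left and kidneys on the right of each panel, knockout before wild type. Filled points are well above background, open points are not, letters name the arrays and bars are group means; Cps1, Arg1, Mat1a, Bhmt and Bhmt2 have all 3 knockout hearts above all 3 wild type hearts.

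The heart values are given first. Cps1, Mat1a, Bhmt, Bhmt2 and Arg1 had all 3 knockout hearts above all 3 wild type hearts, while Gnmt, Tat, Ass1 and Asl overlapped. A gene entered a comparison when each of the 3 arrays of 1 group or the other showed it well above background. Of the 9 members that did so in the heart, 5 were higher in knockout hearts without overlap, a pattern found in 9.15% of the 17484 genes that entered. As this contrast was known when the members were proposed, nothing is read from that count. Cps1, Mat1a, Bhmt and Bhmt2 entered only through the knockout hearts, where they were high. The median log2 difference over the 9 members was 1.60, and over all genes it was -0.07. For both reasons nothing is read from that median either.

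Cps1, the entry enzyme of the cycle, gave -2.19, -3.35 and -1.99 in knockout hearts, against -6.06, -7.32 and -7.90 in wild type hearts. All 3 knockout hearts stood well above background, whereas only wild type heart a did so among its group. The means were -2.51 ± 0.73 in knockout and -7.09 ± 0.94 in wild type hearts (SD, n = 3 each). Against arrays that are not well above background a fold can only be bounded. The bound sets the mean of the brighter group against, on each dim array, the higher of the probe's own signal and the lowest signal called well above background there. For Cps1 this gave at least 16.4-fold.

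Otc, the second mitochondrial enzyme, was dim in the heart. Of its 3 probes, the one at chrX:8753291-8753350 (plus strand, mouse build mm7, as are all positions here) gave -6.68, -6.16 and -5.88 in knockout hearts, against -8.35, -8.75 and -8.08 in wild type hearts. The groups did not overlap, yet only knockout heart b was well above background, so Otc did not enter the count of 9. No fold is given for it. A further probe matched chrX:8709867-8733514 over 23648 bases of the genome with its 60 bases, so the match is interrupted, as across introns. It was not well above background on any heart, and its letters are shown because it is the Otc probe with signal in the kidney:
Otc probe: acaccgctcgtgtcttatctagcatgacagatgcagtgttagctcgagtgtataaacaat

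The cytosolic enzymes of the middle of the cycle showed no such separation. Ass1 gave 0.18, 0.44 and 0.28 in knockout hearts, against 0.44, 0.44 and 0.19 in wild type hearts. Asl gave 0.87, 0.75 and 0.59 in knockout hearts, against 0.83, 0.83 and 0.67 in wild type hearts. The knockout and wild type values of both enzymes were interleaved, with mean log2 differences of -0.06 for Ass1 and -0.04 for Asl. The 2 Ass1 probes share 20 bases, shown in capitals, at chr2:31526070-31527709 and chr2:31527690-31527748 on the plus strand, so they are not independent readings:
Ass1 probe, upstream: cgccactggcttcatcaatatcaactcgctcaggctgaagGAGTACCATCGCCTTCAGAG
Ass1 probe, downstream: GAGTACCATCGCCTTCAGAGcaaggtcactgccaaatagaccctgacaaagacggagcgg
Values in the text are from the upstream probe, which had the higher mean. The downstream probe gave a heart mean of 0.06 ± 0.12 in knockout and 0.12 ± 0.15 in wild type (SD, n = 3 each), the same picture.

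Arg1, the last enzyme of the cycle, gave -3.47, -4.32 and -3.24 in knockout hearts, against -4.97, -5.20 and -5.68 in wild type hearts. All 6 hearts were well above background and the genotypes did not overlap. The measured ratio was 3.04-fold, from means of -3.68 ± 0.57 in knockout and -5.28 ± 0.36 in wild type (SD, n = 3 each). Its probe lies on the minus strand at chr10:24669046-24669105. It is shown because Arg1 was also higher without overlap in the knockout kidneys, which alone admitted it to the kidney test:
Arg1 probe: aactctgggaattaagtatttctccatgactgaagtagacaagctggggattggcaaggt

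Mat1a, the liver form of methionine adenosyltransferase, gave -3.43, -4.25 and -4.23 in knockout hearts, against -7.07, -7.14 and -8.59 in wild type hearts. No wild type heart was well above background for it, and the ratio was at least 6.60-fold. Bhmt gave -3.81, -4.06 and -3.33 in knockout hearts, against -6.66, -6.78 and -7.13 in wild type hearts. Its wild type hearts were likewise not well above background, with a ratio of at least 7.66-fold. Bhmt2 gave -5.47, -5.18 and -5.56 in knockout hearts, against -8.39, -8.77 and -8.59 in wild type hearts. Here the bound was at least 2.44-fold, although the measured log2 difference of 3.18 was close to the 3.12 of Bhmt, because the knockout signal itself lay near the limit of detection. The genes of Bhmt and Bhmt2 are neighbours on chromosome 13, but their probes have no more than 6 bases in a row in common.

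Gnmt gave -1.04, -1.69 and -0.97 in knockout hearts, against -1.91, -1.70 and -1.28 in wild type hearts. Tat gave -0.54, -0.20 and -0.81 in knockout hearts, against -0.57, -0.85 and -0.83 in wild type hearts. For both enzymes the knockout and wild type values overlapped, with mean log2 differences of 0.39 for Gnmt and 0.23 for Tat. The Gnmt probe lies on the minus strand within chr17:44855132-44855280, 1.14 Mb from the Slc29a1 probe. In the later build GRCm38 there are 34 protein-coding genes between Gnmt and Slc29a1. The probe is shown for that position:
Gnmt probe: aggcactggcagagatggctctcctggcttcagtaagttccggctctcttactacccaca

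These heart values depended on how the background was treated. With normexp background correction and an offset of 50 added to every signal, the log2 difference was 1.36 for Cps1, 0.85 for Bhmt, 0.67 for Mat1a, 0.54 for Arg1 and 0.31 for Bhmt2. With the arrays of Xist-positive samples left out, 1 knockout heart remained, and its differences from the wild type mean were 5.11 for Cps1, 3.37 for Mat1a, 3.52 for Bhmt, 3.02 for Bhmt2 and 2.04 for Arg1. Tat then gave -0.06. Leaving out any 1 heart array kept the difference of Cps1 between 4.18 and 5.10 and that of Mat1a between 3.14 and 3.90.

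Among marker lists of liver cells, the median of the hepatocyte list separated the same groups, while that of other liver cells overlapped. All 18 hepatocyte genes were well above background on every knockout heart, against 11 to 16 on the wild type hearts. The median of that list ranged from -2.18 to -1.09 in knockout hearts and from -5.22 to -4.34 in wild type hearts, with a summed level of 33.2 to 66.9 against 23.7 to 50.9, in units of the 75th percentile of the array. Alb, the albumin gene, gave 0.31, 0.46 and 1.34 in knockout hearts, against -2.13, -2.85 and -3.62 in wild type hearts. Without a test, 14 of these 18 genes had the knockout hearts above the wild type hearts with no overlap, beside the 9.15% of all genes given above, with a median log2 difference of 3.13. The rise of liver transcripts in this contrast was known beforehand. Some of these genes, such as Apoa1 and Mbl2, were well above background on no wild type heart and entered through the knockout hearts. Nothing is therefore read from that count or median. Hnf4a, a transcription factor of hepatocytes and of the proximal tubule, was not well above background on any heart. Of 6 genes of other liver cells, 5 or 6 were detected on knockout hearts and 6 on wild type hearts, with medians of -1.45 to -1.05 against -1.08 to -0.62.

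Lists of other tissues also differed among the hearts. The summed level of 8 thymus and T cell genes was 1.18 to 216 in knockout hearts, against 0.709 to 1.39 in wild type hearts, and was high on knockout hearts a and b. Summed over 8 lung and airway genes it was 0.233 to 288 in knockout hearts, against 0.100 to 2.85 in wild type hearts, and was high on knockout heart a. All 7 erythroid genes on the array were detected in knockout hearts, against 4 in wild type hearts. The summed erythroid level overlapped between the genotypes, since both the lowest, 123, and the highest, 206, were in knockout hearts. The median of the list did not overlap, at -3.14 to -2.21 in knockout hearts against -5.04 to -4.43 in wild type hearts. Knockout heart c, with low thymus and lung levels, had Cps1 at -1.99, the highest of the 6 hearts. Its hepatocyte median, -1.09, was also the highest of the 6. The part of these cell types in the enzyme values was not tested.

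**Figure D2:**
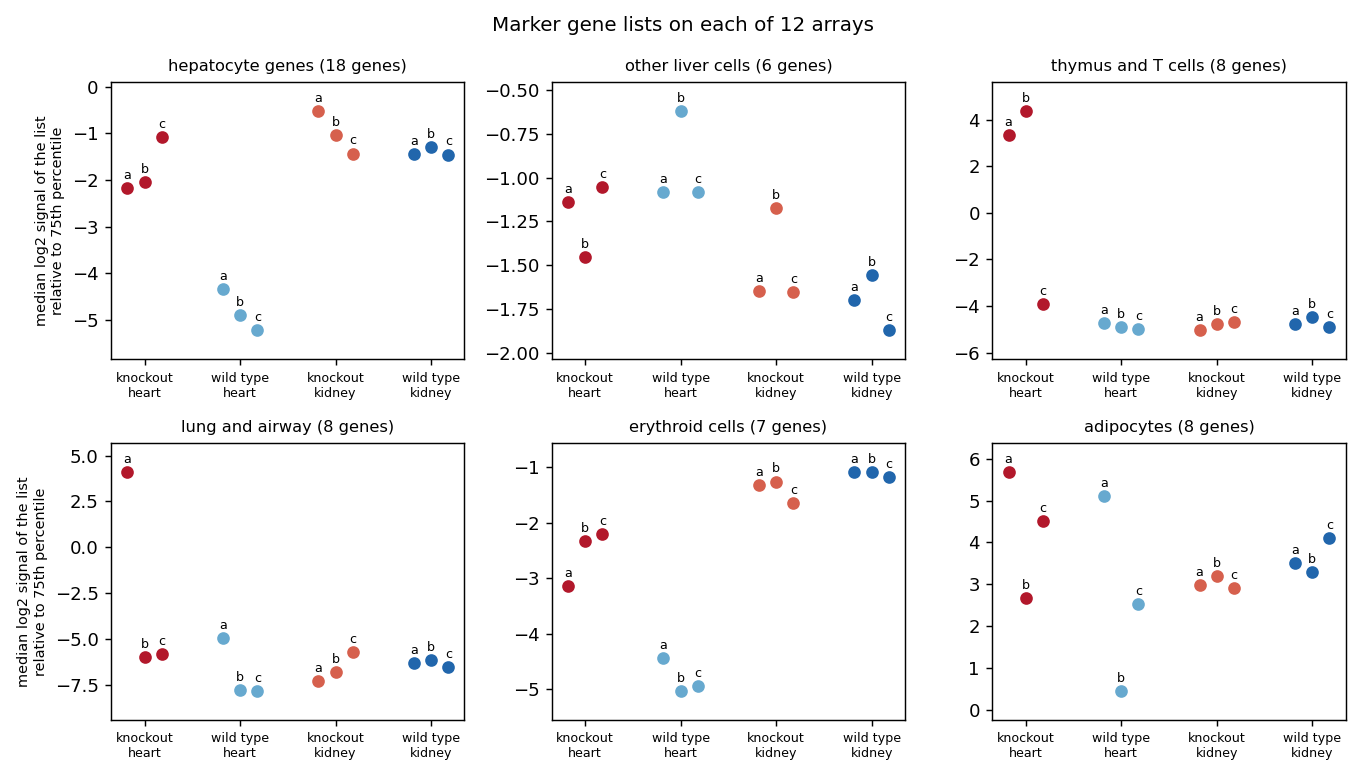
Median signal of 6 lists of marker genes (vertical axis, log2 relative to the 75th percentile of the array, own scale in each panel) on each of the 12 arrays, one point per array with its letter. The 18 hepatocyte genes have medians of -2.18 to -1.09 in knockout hearts against -5.22 to -4.34 in wild type hearts, and the thymus and lung lists are high on knockout hearts a and b and on knockout heart a.

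In the kidney, the comparison of genotypes was not used to propose the members and was tested with limma over 17228 genes. No member passed at an adjusted p under 0.05, where 0.163% of all genes did (28 genes). The 7 enzymes that entered the test were Ass1, Asl, Arg1, Bhmt, Bhmt2, Gnmt and Tat. At an unadjusted p under 0.05 there were 2 of these 7, Arg1 and Tat, beside 13.2% of all genes. The same 2 were higher in knockout kidneys with no overlap, beside 8.71% of all genes. Arg1 entered only through the knockout kidneys, where it was high, so its place in these counts is no support for a difference.

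Arg1 gave -3.69, -5.11 and -6.22 in knockout kidneys, against -7.07, -8.10 and -7.16 in wild type kidneys. All knockout kidneys were well above background and no wild type kidney was, so the knockout group alone admitted Arg1 to the test. The adjusted p-values of Arg1 given here are therefore no support for a difference. The log2 difference was 2.44 ± 0.63 (SE, n = 3 and 3, 95% interval 0.93 to 3.95), at least 2.97-fold, with a limma adjusted p of 0.187. Over 19 settings of the processing the adjusted p lay between 0.0890 and 0.700. Within slide 2 the difference was 1.92, and without the Xist-positive knockout kidney a it was 1.78. With normexp background correction it was 1.27.

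Tat gave -3.30, -4.57 and -5.16 in knockout kidneys, against -6.00, -5.86 and -5.24 in wild type kidneys. Every kidney was well above background, and the lowest knockout value lay just above the highest wild type value. The difference was 1.36 ± 0.48 on the log2 scale (SE, n = 3 and 3, 95% interval 0.22 to 2.49), with a limma adjusted p of 0.296. Within slide 2 it was 1.06, and without knockout kidney a it was 0.84.

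Cps1, Mat1a and Otc did not enter the kidney test, since neither genotype had them well above background on all of its arrays. Cps1 gave -3.68, -4.67 and -6.92 in knockout kidneys, against -8.71, -7.99 and -8.91 in wild type kidneys. The groups did not overlap, and knockout kidneys a and b were the only ones well above background. No fold is given, since knockout kidney c was not well above background. With no filter the log2 difference was 3.45 (95% interval 1.52 to 5.38) and the limma adjusted p was 0.294. Without knockout kidney c Cps1 entered the test through the 2 knockout kidneys where it was high, with a difference of 4.36 and a limma adjusted p of 0.0191. Leaving out that array is what admits it, so this value is no support for a difference.

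Mat1a gave -4.34, -5.77 and -7.48 in knockout kidneys, against -8.58, -7.86 and -7.26 in wild type kidneys. Knockout kidneys a and b were above all wild type kidneys and c was not. With no filter its log2 difference was 2.04 and the limma adjusted p was 0.553. The interrupted Otc probe shown above gave -6.92, -9.02 and -4.22 in knockout kidneys, against -8.92, -8.21 and -9.05 in wild type kidneys, with a limma adjusted p of 0.582 when no filter was used. It was well above background on knockout kidneys a and c, whereas the other Otc probes were above background on no kidney, so the probes disagree and no level is given for the gene.

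The remaining enzymes were bright in both genotypes. Ass1 gave 6.36, 6.73 and 6.84 in knockout kidneys, against 6.78, 7.20 and 6.65 in wild type kidneys. Its spot was saturated on 1 knockout and 2 wild type arrays, which limits how far a difference could show. The log2 difference was -0.24 ± 0.22 (SE, n = 3 and 3, 95% interval -0.75 to 0.28), with a limma adjusted p of 0.668.

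Asl gave 4.87, 4.39 and 4.27 in knockout kidneys, against 5.09, 4.88 and 4.80 in wild type kidneys. Knockout kidneys b and c lay below all wild type kidneys and knockout kidney a lay among them. The difference was -0.41 ± 0.21 (SE, n = 3 and 3, 95% interval -0.91 to 0.08), with a limma adjusted p of 0.460. Bhmt gave 4.10, 3.14 and 3.24 in knockout kidneys, against 3.44, 2.68 and 3.15 in wild type kidneys, with a 95% interval of -0.36 to 1.17 for the difference.

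Bhmt2 and Gnmt showed the narrowest intervals. Bhmt2 gave 5.49, 5.50 and 5.64 in knockout kidneys, against 5.64, 5.69 and 5.41 in wild type kidneys (95% interval of the difference -0.41 to 0.33). Gnmt gave 2.75, 2.65 and 2.78 in knockout kidneys, against 2.76, 2.89 and 2.42 in wild type kidneys (95% interval -0.38 to 0.45). Both intervals leave out a change of 1.5 times in either direction; the sign of the small difference varied with the scaling for Bhmt2 and with the background correction and slide for Gnmt.

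**Figure D3:**
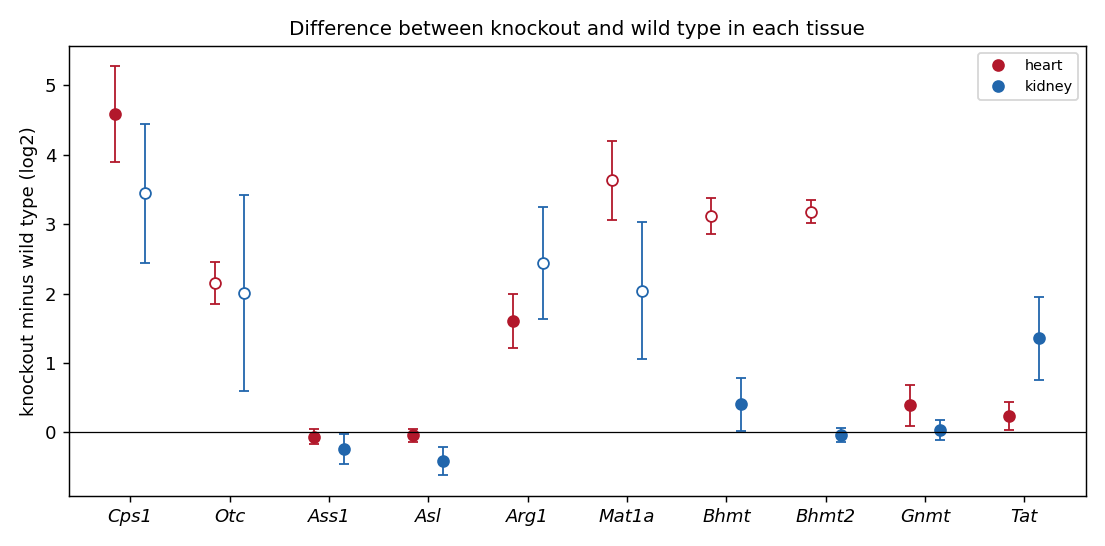
Difference between knockout and wild type (vertical axis, log2) for each enzyme in heart and in kidney, with bars of 1 standard error from the 3 arrays of each group. The Otc points in heart and in kidney are from different probes, which disagree, so they cannot be set against each other. Open points mark a wild type group with no array well above background, whose value is no exact fold; Cps1 is at 4.58 in heart and 3.45 in kidney, while Ass1 and Asl lie near or below 0 in both tissues.

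Among the knockout kidneys, array a had the highest value of Cps1, Arg1, Mat1a and Tat and array c the lowest. The hepatocyte list ran the same way, with medians of -0.52 on array a, -1.03 on b and -1.43 on c, against -1.45 to -1.30 in wild type kidneys. All 18 hepatocyte genes were detected on each knockout kidney and 14 or 15 on the wild type kidneys. Alb gave 1.28, -0.05 and -0.88 in knockout kidneys, against -1.25, -0.81 and -0.70 in wild type kidneys. Their part in the kidney values of the enzymes was not tested.

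The tissue levels were compared in wild type mice alone, kidney against heart. These hearts also served as the wild type group of the contrast known when the members were proposed. All 7 members that could be tested differed, 5 higher in kidney (beside 30.3% of 17985 genes) and 2 lower (beside 34.2%). Bhmt and Bhmt2 entered only through the kidney and Arg1 only through the heart, the tissue where each was higher. Their part of the count is therefore not independent of the filter. The other 4, Ass1, Asl, Gnmt and Tat, were well above background on every array of both tissues. Bhmt2 gave 5.64, 5.69 and 5.41 in wild type kidneys, against -8.39, -8.77 and -8.59 in wild type hearts, at least 4940-fold higher (log2 difference 14.16 ± 0.16, SE, n = 3 and 3, limma adjusted p 2.17e-08). Bhmt was at least 868-fold higher, with 3.44, 2.68 and 3.15 in kidneys against -6.66, -6.78 and -7.13 in hearts (log2 difference 9.95 ± 0.23, limma adjusted p 7.21e-08). Thus Bhmt and Bhmt2 both had bright signals in the kidney and none well above background in the wild type heart.

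Ass1 was higher in wild type kidney than in wild type heart by 6.52 ± 0.18 on the log2 scale (limma adjusted p 1.68e-07), a value limited by saturation on 2 kidney arrays. Gnmt was higher by 4.32 ± 0.21 (limma adjusted p 2.23e-06) and Asl by 4.15 ± 0.14 (limma adjusted p 4.21e-07). Tat was the reverse, at -6.00, -5.86 and -5.24 in kidneys against -0.57, -0.85 and -0.83 in hearts, 30.8-fold lower (limma adjusted p 1.48e-06). Arg1 was at least 2.45-fold lower in wild type kidneys, where it was not well above background on any array (log2 difference -2.16 ± 0.32, limma adjusted p 6.84e-04). With normexp background correction this call was lost, at a log2 difference of -0.25 and a limma adjusted p of 0.248. Cps1, Mat1a and Otc were too dim in both wild type tissues to be tested.

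The members differed in their order over the groups. For Ass1, Asl, Bhmt, Bhmt2 and Gnmt all 6 kidneys lay above all 6 hearts, and the genotypes overlapped within the kidney. Bhmt and Bhmt2 then had knockout hearts above wild type hearts, whereas the genotypes overlapped in the hearts for Ass1, Asl and Gnmt. Cps1 instead had its highest mean in knockout hearts (-2.51), followed by knockout kidneys (-5.09), and its wild type hearts and kidneys, with 1 of 6 arrays well above background, have no order between them. Arg1 had its means at -3.68 in knockout hearts, -5.01 in knockout kidneys, -5.28 in wild type hearts and -7.44 in wild type kidneys. The knockout kidneys and the wild type hearts, neighbours in that order, overlapped, and the wild type kidneys were not well above background. Mat1a had knockout hearts above all wild type hearts and kidneys, which were not well above background and have no order between them. Tat was higher in all 6 hearts than in all 6 kidneys. For Otc no order is given.

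**Figure D4:**
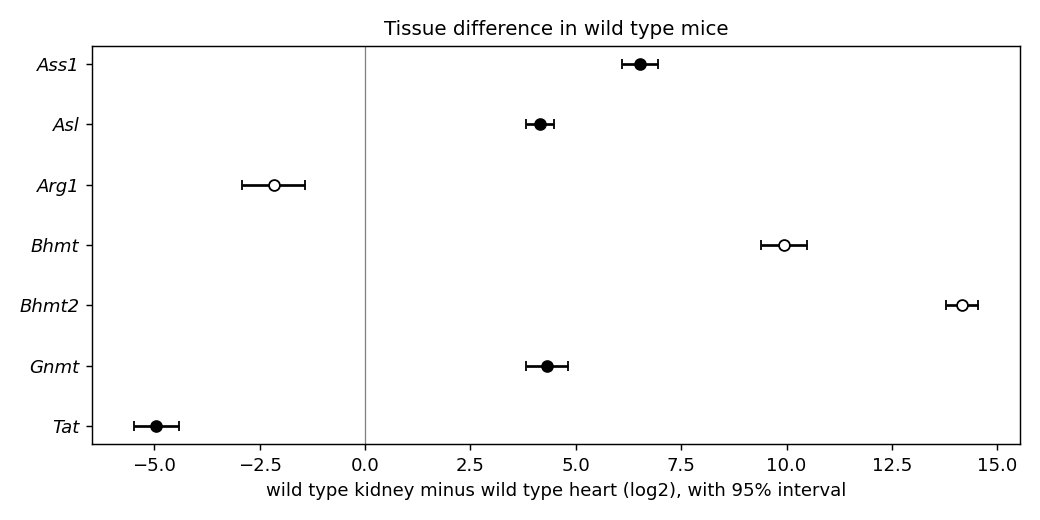
Difference between wild type kidney and wild type heart (horizontal axis, log2) for the 7 enzymes tested, with 95% intervals from limma (n = 3 and 3). Open points mark enzymes that were not well above background in one of the tissues; Bhmt2, Bhmt, Ass1, Gnmt and Asl are higher in kidney and Arg1 and Tat are lower.

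Other genes of the same pathways were read from fixed lists. In the kidney comparison of genotypes 0 of 14 further urea cycle and ammonia genes passed, 0 of 17 methionine and one-carbon genes and 0 of 7 aromatic amino acid genes. The medians of these lists were 0.19, 0.04 and -0.09, beside -0.07 over all genes. At an unadjusted p under 0.05 the counts were 3, 0 and 1, beside 13.2% of all genes, so these counts are no result about the lists. The 3 urea cycle genes, named here after their values were seen, were Nags, Car5a and Arg2. Nags makes the activator that Cps1 needs and differed by 1.21 ± 0.17, and Car5a, the mitochondrial carbonic anhydrase that supplies bicarbonate, by 1.58 ± 0.22 (SE, n = 3 and 3). Both had all knockout kidneys above all wild type kidneys and a limma adjusted p of 0.0580. Arg2, the mitochondrial arginase of the kidney, differed by 1.23 ± 0.50 (limma adjusted p 0.364), and by 0.61 without knockout kidney a. In hearts the log2 difference of Nags was -0.23, with overlap between the genotypes.

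Between wild type kidney and heart, where 30.3% of all genes were higher and 34.2% lower, most genes of these lists were called. Of the 14 urea-related genes 9 were higher in kidney and 2 lower. The higher ones included Gatm (5.09), which makes the creatine precursor guanidinoacetate, and Slc25a15 (3.67), which carries ornithine into mitochondria. Arg2, at least 32.1-fold higher, and Car5a, at least 7.68-fold higher, were not well above background on any wild type heart. Gls2 (-2.43) and Slc38a4 (-1.03) were lower. Of the 17 methionine-related genes 12 were higher and 4 lower. Dmgdh, which oxidises dimethylglycine left by the Bhmt reaction, was at least 1796-fold higher, with no wild type heart well above background. Chdh, which begins betaine synthesis, was at least 153-fold and the transsulfuration enzyme Cbs at least 407-fold higher, each with 2 of 3 wild type hearts well above background. Cth (6.33), the next transsulfuration enzyme, was also higher. Mtr (-2.11), which remethylates homocysteine with folate, was lower in kidney, as were Nnmt (-1.19), Mtrr (-0.84) and Pemt (-0.55). Of the 7 aromatic amino acid genes tested 6 were higher, among them Pcbd1 (6.53) and Fah (3.75), and Got1 (-1.58) was lower. Hgd, at least 2697-fold, and Hpd, at least 386-fold higher, were not well above background on any wild type heart. Values in parentheses are log2 differences, and every gene named had a limma adjusted p under 0.05.

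In the heart comparison of genotypes, described without a test, the urea-related list had a median of -0.23, the methionine-related list -0.09 and the aromatic list 0.27. The furthest genes were Slc25a13 at -0.69, Gatm at -0.53 and Slc25a15 at -0.42 in the urea-related list. The Slc25a15 value rested on wild type heart b, without which it was 0.22. In the methionine-related list they were, by measured difference, Dmgdh at 2.35, Chdh at 2.30 and Cbs at 1.54. Each had wild type hearts not well above background. As bounds the ratios were at least 1.48-fold for Dmgdh, 4.82-fold for Chdh and 2.82-fold for Cbs. Chdh overlapped between the genotypes, with wild type heart a (-3.68) above knockout heart c (-4.59). Its difference ran from 1.73 to 3.32 over the arrays left out. In the aromatic list Hpd was at 2.80 and Tdo2 at 1.05, with Tdo2 at 0.55 without knockout heart c. Their bounds were at least 6.99-fold for Hpd and 1.90-fold for Tdo2. Dmgdh and Hpd had no wild type heart well above background, like Mat1a, Bhmt and Bhmt2. The mitochondrial carriers and the widely expressed Mat2a, at -0.04, thus did not share the separation seen for Cps1 and Mat1a.

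The genes whose heart pattern was most like that of Cps1 were sought among 18128 genes well above background on at least 3 hearts, by Pearson correlation over the 6 hearts. The named genes among the first 8 were Car2, Uox, Cyp3a44, Spaca4, Ces1c, H2-Bl and C4bp, with r of 0.99, and 1 probe had no gene name. The 6 hearts fall into their genotypes, so these values mostly describe the step between them, and the arrays share their slides. Over the 6 kidneys r with Cps1 was 0.996 for Uox, 0.97 for Ces1c, 0.96 for Cyp3a44, 0.85 for C4bp, 0.81 for Car2, 0.77 for H2-Bl, -0.92 for the unnamed probe and -0.98 for Spaca4. Uox, the liver urate oxidase, gave -3.34, -4.09 and -5.74 in knockout kidneys, against -7.13, -6.96 and -7.29 in wild type kidneys, the same order of arrays as Cps1 in the knockout group. Among the members, r with Cps1 over hearts was 0.98 for Bhmt, 0.98 for Arg1, 0.97 for Mat1a and 0.95 for Bhmt2. Over kidneys it was 0.92 for Arg1 and 0.92 for Mat1a, but 0.58 for Bhmt and -0.28 for Bhmt2, both of which were bright on every kidney array.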

How the data were processed

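The members and gene lists were chosen with earlier results of these data known. Intensities were deposited by the authors as Agilent Feature Extraction scanner output (version 9.5.3.1 per the file headers, 9.1 per the submitters' processing notes). Probe positions are on build mm7, per the file headers. The authors' deposited log2 table holds the same arrays centred per probe within a tissue, and was also fitted, each column standing for the array whose values it tracks. The 75th percentile per array was 464.6 to 940.4 intensity units in the file headers. The one subtracted here, over probes after outlier spots were dropped, was 451.2 to 878.0. Per array, 24682 to 28814 probes were well above background and 157 to 331 spots were saturated. The number of arrays limits the precision.

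From 43379 non-control spots, outlier-marked spots (54 to 231 per array) were dropped, replicate spots averaged and log2 of the processed signal taken minus the 75th percentile. Probes were named through accession (22969), symbol (6659) or synonym (3109), and 8437 kept the file's name. A probe entered a comparison when 1 of its groups had it well above background on each of the 3 arrays, and a gene was represented by its probe of highest mean. limma 3.58.1 in R 4.3.3 was fitted to the arrays of each comparison, with Benjamini-Hochberg adjustment over all genes, and was tested on simulated data. Named genes were every member, Slc29a1, called list genes up to 4 per direction (in heart the 3 furthest), and the 8 genes most like Cps1. An item that this rule names is not reported here.

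Deviations of same-letter hearts of opposite genotype correlated at 0.39, 0.19 and 0.26, each over the rule of 0.1. This shows shared deviation and not which animals or samples belong together. A block leaves the heart differences as they are. Kidneys gave 0.10, -0.01 and -0.15, not all over that rule, and their main fit had no block. Alternatives were background correction, scaling, filter, outlier spots, probe choice, letters, slide, Xist, the deposited table and each array left out.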

Additional observations from a re-analysis of the deposited data

How the results depend on the processing

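Of the members, 0 passed in the kidney under each setting except without knockout kidney c, where Cps1 did, admitted to the test by that omission (0 to 1 over the arrays left out). The count over all genes, 28, moved more: 0 with normexp, 104 with median scaling, 4 with no filter, 11 with outlier spots kept, 50 with the mean over probes, 2 with the letters as a replicate block, 77 with all 12 arrays in one fit, 82 with only arrays without Xist, 289 with slide as a block, 245 within slide 2, and 1 to 94 over the arrays left out. Blocking on the letters changed no call of a member. Between wild type tissues 7 members passed, and 4 when every array had to be well above background, since Arg1, Bhmt and Bhmt2 were then not tested. That filter likewise left 1 enzyme, Arg1, of the 5 without overlap in heart. With normexp background correction 4 members were higher in knockout hearts without overlap, and with no filter 6 were.

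Small differences changed sign. These were, in heart, Asl at 0.034 without knockout heart c and Tat at -0.06 with only arrays without Xist. They were also those of Bhmt2 in kidney, 0.16 with quantile scaling, 0.0086 with median scaling and -0.12 to 0.019 over the arrays left out (above 0 without wild type kidney b), and of Gnmt in kidney, -0.20 with normexp, -0.095 to 0.14 over the arrays left out (below 0 without wild type kidney c) and -0.11 with slide as a block or within slide 2. The cause was not tested. Median scaling shifted all heart differences by -0.16 and the tissue differences by 0.13. Signals near background limit Cps1, Otc, Arg1, Mat1a, Bhmt and Bhmt2 in the heart, and saturation limits Ass1 in the kidney.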
